A study of Mus musculus with 4 samples.

Results

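The genes described here are 29 genes of cholesterol synthesis and uptake, of 28649 gene rows in the deposited table. They comprise 19 enzymes that lead from acetyl-CoA to cholesterol or to its isoprenoid side product, 6 genes of the SREBP system that sets their transcription, and 4 genes of lipoprotein uptake, sterol storage, export and transfer. Each symbol matched exactly 1 row, and all 29 passed the filter on low counts that left 15240 genes tested. The genes were selected on their place in the pathway with the miR-206 over control folds of these libraries already known, and Hmgcs1 and Fdps were chosen by their low level in the miR-206 pulldown. The values of that comparison are therefore given as a description, without p-values, and the calls of the fit are used only to sort genes into classes.

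The cells were fibro-adipogenic progenitors (FAPs), mesenchymal stromal cells of skeletal muscle that can turn into fat cells or fibroblasts, sorted by the surface antigen Sca1 from muscle of wild-type C57Bl/6 mice. All cells were expanded to about 80% confluency in 20% fetal bovine serum and 10% horse serum with 5 ng/ml FGF, transfected for 24 hours, and held in 10% horse serum for a further 48 hours. The transfected mimic carried biotin and was either miR-206, a muscle microRNA, or a control, and each pulldown was made in 2 libraries (4 in all). Mouse age, sex and number, the control sequence, and whether replicates came from separate cultures are not stated, so the spread between replicates may be technical.

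Cholesterol is built from acetyl-CoA through mevalonate, farnesyl diphosphate, squalene and lanosterol. When sterols in the endoplasmic reticulum run low, SCAP carries the membrane-bound precursor of the transcription factor SREBP2 to the Golgi, where a pair of proteases frees its active part, which then raises transcription of the synthesis and uptake genes. INSIG proteins hold SCAP back when sterols are plentiful. A microRNA guides Argonaute to messenger RNAs mainly through base pairing of its seed, and a biotin-tagged mimic allows the bound transcripts to be captured and sequenced.

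The mature guide strand of mouse miR-206 is shown because it defines the bait. It lies at chr1:20679055-20679076 on the plus strand (GRCm38, sequence from RefSeq), is written 5′ to 3′, and its seed, bases 2 to 8, is in capitals. Which strand of the mimic carried the biotin is not stated, and seed matches in the members' transcripts were not analysed here.
mmu-miR-206-3p: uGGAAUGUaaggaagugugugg

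The libraries held 8883200 and 14261600 estimated counts (control replicates 1 and 2) and 14566600 and 15426700 (miR-206 replicates 1 and 2). Levels below are normalised CPM, counts scaled to edgeR's TMM-adjusted library size, unless TPM, a value per transcript length, is named. The TMM factors were 1.62 and 1.34 for the control replicates and 0.62 and 0.74 for the miR-206 replicates. The gene with the most counts took 1.87% and 2.91% of a control library and 13.9% and 11.8% of a miR-206 library. The median log2 fold of all 15240 genes was -0.11 with TMM, -0.40 with upper-quartile scaling, -1.22 with total counts alone and -0.70 with log2(TPM + 1), and folds of members read against that median. FAP markers were present, with Pdgfra at 510 and 712 CPM with the control mimic and 658 and 589 with miR-206. The summed level of 7 FAP markers was 3402 and 4554 CPM with the control mimic and 6515 and 7145 with miR-206. Of the 7, Cd34 (234 and 305 CPM against 2686 and 3388) and Thy1 were called higher, while Dcn and Col1a1 had uncalled log2 folds of -0.48 and -0.72 with no overlap between groups. Over the 4 libraries the sums were 56.2 to 115 CPM for 5 endothelial markers, 7.05 to 13.3 for 5 immune markers and at most 1.5 for 3 hepatocyte markers. Those of 5 pericyte markers were 24.3 and 38.9 CPM with the control mimic and 785 and 505 with miR-206. Of these, Rgs5 and Abcc9 were called higher, and Cspg4 and Mcam had log2 folds of -0.04 and 0.23. The sums of 5 myogenic markers were 35.1 and 37.4 CPM against 89.5 and 55.9, with Myod1 (log2 fold 3.10) and Myog (0.98) called higher and Myf5 at -2.83 from at most 2.41 CPM, not called. Of the endothelial markers Cdh5 alone was called, at 2.40. Tek and Emcn had uncalled log2 folds of -1.50 and -1.65 with no overlap between groups. Pecam1 and Kdr had 0.21 and 0.54, with overlapping groups. The part of these markers in the results below was not tested.

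Hmgcs1 showed the widest gap between the pulldowns among the 29 genes. It encodes cytosolic HMG-CoA synthase, which makes the precursor of mevalonate, and spans 119690351 to 119708260 on chromosome 13 of GRCm38. Its level was 8422 and 12211 CPM with the control mimic and 130.1 and 159.7 with miR-206, from 121013 and 232797 estimated counts against 1182 and 1814. Both control libraries lay far above both miR-206 libraries, while the replicates of a group differed by less than 1.5-fold. The group means were 10317 ± 2679 and 145 ± 20.9 CPM (SD, n = 2), and the log2 fold (miR-206 over control) was -6.15 ± 0.52 (SE), with a 95% interval from -7.25 to -5.06. Hmgcs1 took 1.36% and 1.63% of all counts with the control mimic and 0.00811% and 0.0118% with miR-206.

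Fdps was the other member with a large deficit in the miR-206 pulldown. It encodes farnesyl diphosphate synthase, whose product feeds both sterol synthesis and protein prenylation, and lies on chromosome 3 from 89093588 to 89101967. Its level was 842 and 822 CPM with the control mimic and 43.6 and 37.9 with miR-206. The replicates were close to each other in both groups and the groups did not overlap. Group means were 832 ± 14.4 and 40.8 ± 3.99 CPM (SD, n = 2), and the log2 fold was -4.35 ± 0.38 (SE), with an interval from -5.16 to -3.54. From the most depleted end of the 15240 tested genes, Hmgcs1 ranked 37 and Fdps 70.

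**Figure D1:**
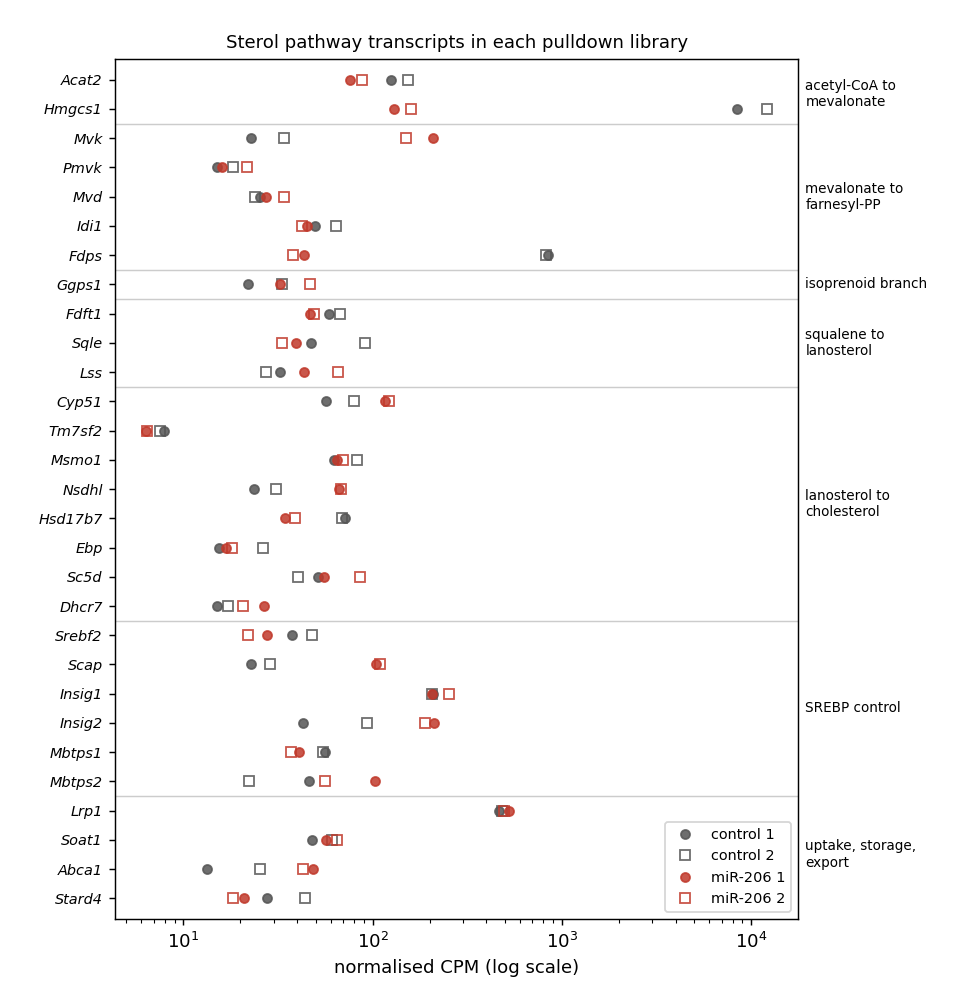
Normalised CPM (log axis) of the 29 genes in each of the 4 libraries, in pathway order from acetyl-CoA to cholesterol, then SREBP control and sterol handling. Grey points are control libraries and red points miR-206 libraries; Hmgcs1 (8422 and 12211 against 130.1 and 159.7) and Fdps (842 and 822 against 43.6 and 37.9) stand apart, whereas Mvk and Scap are higher in both miR-206 libraries.

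Ratios within a library do not depend on how libraries are scaled, and they show the same contrast from the control side. Among the other 27 members TPM ran from 1.83 (Abca1) to 306 (Lrp1) in control replicate 1 and from 3.32 to 326 in control replicate 2, with medians of 20.8 and 24.0. Hmgcs1, at 3811 and 5261 TPM, was 183 and 219 times that median, and Fdps, at 1100.3 and 1016.5 TPM, 52.9 and 42.4 times. No other member was above either gene in the control libraries. Hmgcs1 alone made up 64.7% and 71.3% of the TPM summed over the 29 genes there, and it ranked 15 and 12 among all gene rows, with Fdps at 59 and 83.

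In the miR-206 libraries both genes lay among the rest of the pathway. Hmgcs1 was at 29.1 and 38.1 TPM and Fdps at 28.1 and 26.1, against medians of 11.1 and 14.6 TPM for the other 27. That is 2.62 and 2.60 times the median for Hmgcs1 and 2.54 and 1.78 times for Fdps. Other members lay above them: 5 and 4 above Hmgcs1, and 5 and 7 above Fdps, in replicates 1 and 2. Hmgcs1 then made up 4.08% and 5.03% of the summed TPM and ranked 2080 and 1690 among all rows. The log2 fold of Hmgcs1 minus the median fold of the other 27 was -6.32, and that of Fdps -4.52, with replicate spreads of 0.38 and 0.20. Over 14 alternative settings the first lay between -6.48 and -6.14 and the second between -4.74 and -4.32. A factor common to all genes of a library cancels in these differences, so settings that only change the scaling could hardly move them. The ends of both ranges came from fits with 1 library left out. The ranges are a description, since Hmgcs1 and Fdps were chosen by this comparison. With no library of unselected RNA among the 4, more capture with the control mimic, less capture with miR-206 and a different amount of the transcript in the cells cannot be told apart, nor can fewer cells from less RNA per cell.

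**Figure D2:**
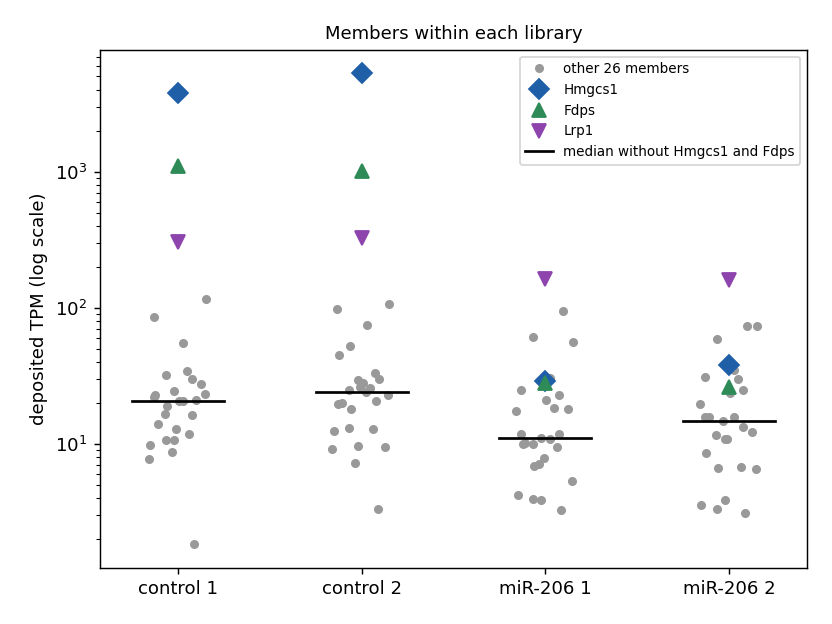
Deposited TPM (log axis) of the 29 genes within each library; grey points are 26 members, coloured markers Hmgcs1, Fdps and Lrp1, and the bar is the median without Hmgcs1 and Fdps. Hmgcs1 and Fdps lie above every other member in both control libraries and between other members in both miR-206 libraries, where Lrp1 is the highest.

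Of the 29 genes the fit called 6 higher in the miR-206 pulldown (Mvk, Nsdhl, Scap, Insig2, Mbtps2 and Abca1) and 3 lower (Hmgcs1, Fdps and Hsd17b7), and 20 were not called (edgeR quasi-likelihood test, threshold 0.05 on p adjusted over all genes tested). Over all tested genes 15.3% were called higher and 6.19% lower. Groups did not overlap for 23 of the 29 members, 12 higher and 11 lower with miR-206, against 62.0% of all tested genes. Since the members were chosen with this comparison known, nothing is read from these shares. The median log2 fold of the 27 members other than Hmgcs1 and Fdps was 0.16, against -0.11 for all tested genes. That order was not kept in every setting. It was -0.79 against -0.70 with log2(TPM + 1), -0.80 against -0.99 with log2(TPM + 0.1) and -0.071 against 0.022 with median-centred TPM. In the main fit the 20 uncalled members ran from -0.94 to 0.86, with 10 on each side of 0.

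**Figure D3:**
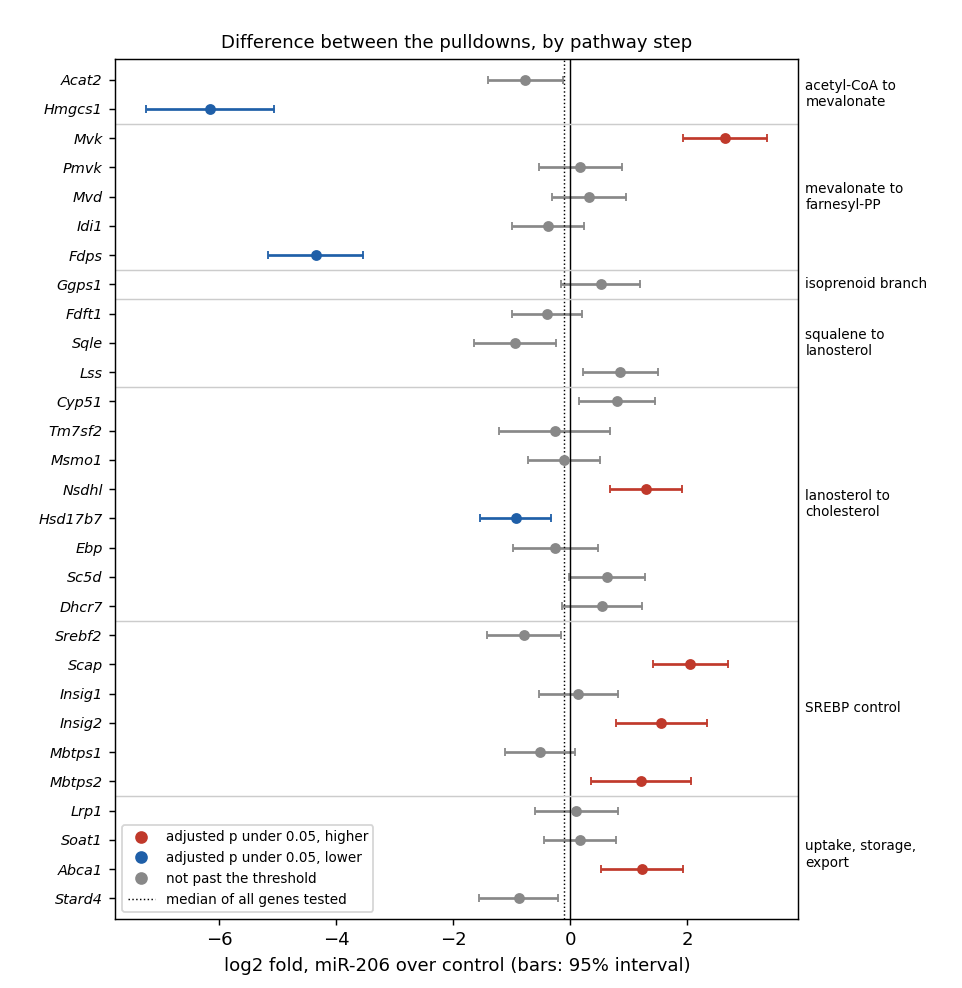
Log2 fold (miR-206 over control) of each gene with its 95% interval, in pathway order; red and blue mark genes past the threshold, and the dotted line is the median of all tested genes (-0.11). Hmgcs1 (-6.15) and Fdps (-4.35) lie well to the left, and Mvk (2.65) and Scap (2.06) farthest to the right.

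The first steps of the pathway held the extremes in both directions. Mvk, mevalonate kinase, sits between Hmgcs1 and Fdps in the pathway and went the opposite way, with 22.7 and 34.2 CPM with the control mimic and 208 and 151 with miR-206. Its groups did not overlap, and its log2 fold was 2.65 ± 0.34 (SE). The gene lies on chromosome 5 from 114444264 to 114460591. Acat2, the cytosolic thiolase that joins acetyl-CoA units, was at 126 and 154 CPM against 75.9 and 88.4, with a log2 fold of -0.77 ± 0.31 that was not called here but was under 7 of 14 alternatives, among them DESeq2, median-centred TPM and the fit without control replicate 1.

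The next kinase and the decarboxylase of the mevalonate branch showed small differences. Pmvk, phosphomevalonate kinase, was at 15.1 and 18.4 CPM with the control mimic and 16 and 21.7 with miR-206, and these overlapped. Mvd, mevalonate diphosphate decarboxylase, was at 25.3 and 23.8 CPM against 27.2 and 34.2. Their log2 folds were 0.17 ± 0.34 and 0.32 ± 0.30, neither called. Idi1, the isopentenyl diphosphate isomerase that prepares the substrates of Fdps, was at 49.7 and 63.7 CPM against 45.2 and 42.2, a log2 fold of -0.38 ± 0.29. Ggps1, which lengthens farnesyl to geranylgeranyl diphosphate for protein prenylation, was at 22.1 and 33.2 CPM against 32.4 and 46.9, with a log2 fold of 0.52 ± 0.32. Neither was called, so the enzymes next to Fdps on both sides showed no called difference.

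Of the 3 enzymes that turn farnesyl diphosphate into lanosterol, none was called. Fdft1, squalene synthase and the first enzyme committed to sterols, was at 58.5 and 67.4 CPM with the control mimic and 46.6 and 49.1 with miR-206. Sqle, squalene epoxidase, was at 47.5 and 91.6 CPM against 39.3 and 33.1, and its control replicates differed more from each other than those of any other member except Insig2 and Mbtps2. Lss, lanosterol synthase, was at 32.4 and 27.5 CPM against 43.1 and 65.4. Their log2 folds were -0.40 ± 0.29, -0.94 ± 0.33 and 0.86 ± 0.31. Sqle and Lss lay just outside the threshold, and both crossed it under some settings: Sqle was called under 8 of 14 alternatives and Lss under 3. Without control replicate 2 the log2 fold of Sqle was -0.35, and with total counts alone that of Lss was -0.25.

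Among the 8 enzymes from lanosterol to cholesterol, Nsdhl was called higher and Hsd17b7 lower, although both act in the removal of methyl groups at the same sterol carbon. Nsdhl, the decarboxylating dehydrogenase, was at 23.6 and 31.1 CPM with the control mimic and 66.7 and 67.8 with miR-206, a log2 fold of 1.30 ± 0.29. Hsd17b7, the ketoreductase of that sequence, was at 71.3 and 69.0 CPM against 34.6 and 38.9, a log2 fold of -0.93 ± 0.29. Groups did not overlap for either gene. Hsd17b7 was not called without miR-206 replicate 1 (log2 fold -0.90) or replicate 2 (-1.02). Msmo1, the methyl oxidase of the same sequence, was at 62.4 and 82.8 CPM against 64.9 and 69.9, with overlapping groups and a log2 fold of -0.11 ± 0.29.

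The remaining late enzymes were not called with all libraries and TMM scaling. Cyp51, the lanosterol demethylase, was at 56.4 and 79.8 CPM with the control mimic and 116 and 122 with miR-206, a log2 fold of 0.80 ± 0.31. It was called with DESeq2 and without control replicate 2 (1.12), and was -0.29 with total counts alone. Tm7sf2, a sterol reductase, had the fewest counts of the 29 genes, at 7.93 and 7.5 against 6.38 and 6.43 CPM, from 58 to 143 estimated counts per library. Its groups did not overlap, and its log2 fold was -0.27 ± 0.45. Ebp, the sterol isomerase, was at 15.5 and 26.3 CPM against 16.8 and 18.1, and the groups overlapped. Sc5d, a sterol desaturase, was at 51.2 and 40.2 CPM against 55.6 and 85.6, and Dhcr7, which reduces the immediate precursor of cholesterol, at 15.1 and 17.3 against 26.6 and 20.8. Log2 folds were -0.26 ± 0.34 for Ebp, 0.63 ± 0.31 for Sc5d and 0.55 ± 0.32 for Dhcr7.

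In the SREBP system, 3 of 6 genes were called higher and 0 lower, beside 15.3% and 6.19% of all tested genes. Nothing is read from this count, since the members were chosen with the comparison known. Of the 3, only Scap kept its call in all 14 alternatives. Scap, the sterol-sensing escort of SREBP, was at 22.8 and 28.6 CPM with the control mimic and 104 and 110 with miR-206. The groups lay far apart with close replicates, and the log2 fold was 2.06 ± 0.30. Scap lies on chromosome 9 from 110333288 to 110384949. Insig2, which retains SCAP in the endoplasmic reticulum, was at 42.7 and 93.2 CPM against 211 and 190, a log2 fold of 1.56 ± 0.37. Insig1, with the same role and itself a SREBP target, was at 210 and 206 CPM against 205 and 252, with overlapping groups and a log2 fold of 0.14 ± 0.32.

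The proteases that release SREBP differed from each other. Mbtps2, the intramembrane protease, was at 46.2 and 22.1 CPM with the control mimic and 103 and 56.0 with miR-206, so its groups did not overlap but its replicates lay nearly as far apart as its groups. The log2 fold of 1.21 ± 0.39 was called, but it was 0.82 without control replicate 2 and 0.65 without miR-206 replicate 1, neither called. With uncentred log2(TPM + 1) it was -0.12, where the median of all tested genes was -0.70. With median-centred TPM it was 0.61 and not called. Mbtps1, the protease that makes the preceding cut, was at 56.1 and 55.0 CPM against 40.9 and 37.0, a log2 fold of -0.51 ± 0.28 that was called under 4 of 14 alternatives, all of them other scalings or TPM. Srebf2, the gene of SREBP2 itself, was at 37.4 and 47.8 CPM against 27.5 and 21.8. Its groups did not overlap, and its log2 fold of -0.79 ± 0.30 was not called, though it was under 5 of 14 alternatives, including without control replicate 1 (-0.94).

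Of the 4 genes of sterol handling outside synthesis, only Abca1 was called. Abca1, the transporter that exports cholesterol to apolipoproteins, was at 13.4 and 25.4 CPM with the control mimic and 48.5 and 42.8 with miR-206, a log2 fold of 1.23 ± 0.33. It was not called without miR-206 replicate 1 (log2 fold 1.10), nor with total counts alone (0.15) or any TPM setting (0.26 to 0.98). Lrp1, a large receptor that takes up lipoprotein remnants and many other ligands, was at 465 and 483 CPM against 525 and 494. Its groups did not overlap, but its log2 fold was 0.10 ± 0.34. Soat1, which esterifies cholesterol for storage, was at 48.0 and 61.0 CPM against 57 and 65.2 with overlapping groups. Stard4, a soluble sterol carrier, was at 27.7 and 43.9 CPM against 20.8 and 18.2. Its log2 fold of -0.88 ± 0.32 was not called in the full set of libraries but was called under 8 of 14 alternatives. The fold was -0.47 without control replicate 2 and -1.15 without control replicate 1.

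Replicates of the members lay closer together than those of all tested genes, which were not matched to the members by level. The median gap between replicates was 0.35 on the log2 scale in the control pulldown and 0.19 in the miR-206 pulldown, against 0.49 and 0.35 over all tested genes. The widest gaps among the members were 1.13 (Insig2), 1.06 (Mbtps2), 0.95 (Sqle) and 0.93 (Abca1) between control replicates and 0.87 (Mbtps2) between miR-206 replicates. Hmgcs1 and Fdps had control gaps of 0.54 and 0.04.

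The folds of all members moved with the scaling of the libraries, and 4 members kept their calls throughout. All settings drew on the same libraries, and the members were chosen with this comparison known, so the kept calls are a description. Hmgcs1, Fdps, Mvk and Scap were called in the same direction with all libraries and in all 14 alternatives, with log2 folds between -7.24 and -5.82, between -5.48 and -4.25, between 1.54 and 3.02 and between 0.95 and 2.27. Nsdhl and Insig2 kept positive folds but were not called with total counts alone or with uncentred TPM. With total counts alone 17 members were called lower and 2 higher, beside 45.3% and 7.02% of all tested genes. With TPM 15 were called lower and 2 higher, beside 38.5% and 7.17%. In the authors' deposited table, which gives the log2 fold of mean TPM without centring, 23 of the 29 members had a negative value, with a median of -0.93. The share and median over all its genes were not computed, so nothing is read from this count. With log2(TPM + 1), also uncentred, the median log2 fold of all tested genes was -0.70. The deposited values were -7.08 for Hmgcs1, -5.29 for Fdps, 1.74 for Mvk and 1.13 for Scap.

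**Figure D4:**
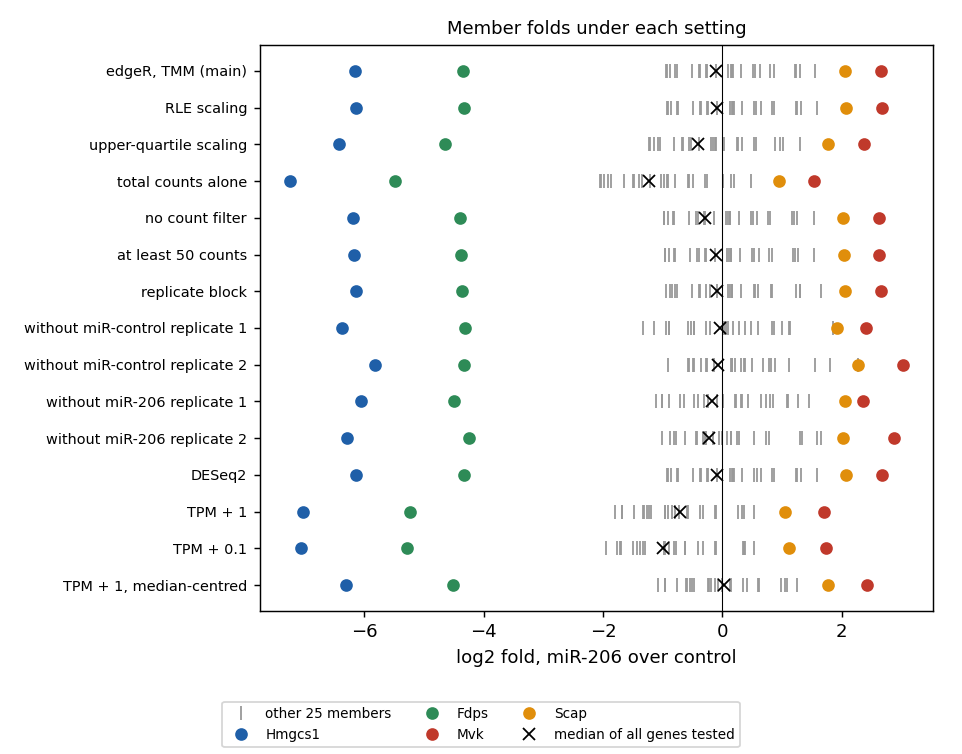
Log2 fold (miR-206 over control) of each member with the reported setting (top row) and the 14 alternatives; coloured points are Hmgcs1, Fdps, Mvk and Scap, grey ticks the other 25 members, and crosses the median of all tested genes. With total counts alone and uncentred TPM most grey ticks and the crosses lie further left, but the 2 do not move in step in every row. Without miR-206 replicate 1 the median of all tested genes went from -0.11 to -0.17. That of the 27 members other than Hmgcs1 and Fdps went from 0.16 to 0.23. The 4 coloured genes keep their order around the crosses.

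Each row of the deposited table names 1 transcript, and counts and TPM together show how steady its effective length was. A row that held a single transcript of fixed length would keep 1 ratio of count to TPM, relative to other genes, in every library. That ratio, divided by its median over the tested genes of a library, varied by at most 1.08 times for Hmgcs1, Fdps, Mvk, Scap and Hsd17b7. It varied by 1.26 times or more for 5 members: Soat1 (1.74), Lss (1.63), Mbtps2 (1.57), Stard4 (1.43) and Dhcr7 (1.26). For Mbtps2 it was 1.07 and 1.38 with the control mimic and 1.68 and 1.48 with miR-206, and its log2 fold was 1.21 from counts and 0.61 from median-centred TPM. For Lss it was 2.37 and 2.24 against 1.78 and 1.45. For Lrp1, whose full-length messenger RNA is very long, the ratio was 0.88 to 1.00, below that of Hmgcs1 (1.32 to 1.40), and its TPM is uncertain as a level for that reason. Fdft1, Tm7sf2 and Mbtps2 share genomic span with Ctsb, Vps51 and Yy2 in the RefSeq annotation, and whether counting used strand is not stated.

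Further genes of sterol and isoprenoid metabolism were listed by role, with the values of the members already known. Of 56 such genes 54 were tested, and 11 were called higher, 3 lower and 40 not, beside 15.3% and 6.19% of all tested genes. Their median log2 fold was 0.04. Called higher were Stard3nl and Stard3, late endosomal sterol proteins, at 3.85 ± 0.47 and 3.30 ± 0.33, and Scarb1, the receptor for high-density lipoprotein, at 2.32 ± 0.35. These 3 kept their calls in all 14 alternatives. Stard3 was at 14.9 and 10.6 CPM with the control mimic and 143 and 107 with miR-206.

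Beyond these, Fntb, the beta subunit of the farnesyltransferase that uses the product of Fdps, was at 12.8 and 6.08 CPM with the control mimic and 84.2 and 97.1 with miR-206, a log2 fold of 3.27 ± 0.37. It was 1.12 and 1.17 with TPM + 1 and TPM + 0.1, not called, and 1.84 with median-centred TPM. Its TPM was 25 and 9.54 against 32.9 and 37.2, so counts and TPM differ in the size of its change. Erlin2, Ufd1 (listed as Ufd1l) and Pgrmc1, tied to sterol-dependent protein turnover or sterol binding in the endoplasmic reticulum, had log2 folds of 1.67, 1.69 and 1.54. Mylip, a ubiquitin ligase for lipoprotein receptors, had 1.69, the oxysterol receptor gene Nr1h2 1.32, the sterol transfer gene Gramd1b 1.47 and the corepressor gene Ncor1 0.92. Erlin2, Ufd1, Pgrmc1 and Mylip were not called with total counts alone or uncentred TPM. Nor was Nr1h2, which was also not called without miR-206 replicate 2 (1.02). Gramd1b was not called under 7 of 14 alternatives, including without miR-206 replicate 1 (1.45) or replicate 2 (1.43). Ncor1 was at -0.21 with total counts alone and with uncentred TPM, and was not called without control replicate 2 or either miR-206 replicate. Rce1, a protease of prenylated proteins, was called lower (-1.20), as were Gramd1a (-1.11) and Lrpap1, a chaperone of LRP1 (-0.89). None of these 3 lower genes was called without miR-206 replicate 1, and of the 3 only Gramd1a was without miR-206 replicate 2. Gramd1a was not called without control replicate 1 (-0.68), nor Lrpap1 without control replicate 2 (-0.75).

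Neither of the other thiolase genes listed beside Acat2 was called. Acat1, the mitochondrial thiolase, was at 35.3 and 23.2 CPM with the control mimic against 65.8 and 39.3 with miR-206, a log2 fold of 0.84 ± 0.33 that was not called. Acat3, a near copy of Acat2 whose reads could be shared with it, was at 3.20 and 1.36 CPM against 2.42 and 4.67.

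RefSeq promoters (GRCm38) were at hand for 25 of the 29 genes; Fdps, Fdft1, Sqle and Stard4 had no entry. The 250 bases before each start were searched on both strands for the sterol regulatory element TCACNCCAC, at which SREBP binds, the CCAAT box and the E-box CACGTG. This 9-letter form of the sterol element was found in Hmgcs1 alone among the 25, and in 1.05% of all 32851 promoters. No other form and no wider window was searched, so the other promoters are not shown to lack sterol elements. The CCAAT box was found in 19 of the 25 and in 33.8% of all, and the E-box in 6 of the 25 and in 6.02% of all. These matches are descriptions of the sequence windows. The stretch around the Hmgcs1 match is shown because Hmgcs1 is the member with the widest gap; it is chr13:119690169-119690267, plus strand, 5′ to 3′, with the match in capitals, 137 to 129 bases before the start.
Hmgcs1 upstream: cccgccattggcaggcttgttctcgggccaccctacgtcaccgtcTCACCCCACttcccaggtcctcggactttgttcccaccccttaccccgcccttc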

How the data were processed

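FastQC and kallisto were used with build mm10, per the submitters' processing notes, which as used here name no versions, annotation or rule for joining transcripts. The deposited table holds the authors' estimated counts and TPM per gene and library. A second deposited sheet gives the authors' group mean TPM signal (means under 1 set to 0) and its log2 values, per the file headers and the values. Columns were tied to samples by the barcode in each title. Estimated counts were rounded and tested with edgeR 4.0.16 (glmQLFit and glmQLFTest, robust, TMM scaling, filterByExpr, group as the only term; R 4.3.3) on 15240 genes, with Benjamini-Hochberg adjustment over all of them and a threshold of 0.05. The SE is the size of the log2 fold over the root of its F statistic, and 95% intervals are built from it. Alternatives used DESeq2 1.42.0 and limma 3.58.1, the latter on log2(TPM + 1) or log2(TPM + 0.1). The fit was also run on simulated data in which few genes changed, as many raised as lowered. That run does not bear on the choice of scaling. The members and gene lists were chosen with earlier results of these data known; every member is named, and of the further genes those called, plus Acat1 and Acat3. Replicate numbers were not used as pairs in the main fit: deviations of same-numbered libraries correlated at -0.08 over 15240 genes. Whether same-numbered libraries were prepared together is not stated. Coordinates are RefSeq's for GRCm38, matched by symbol. Seed matches in transcripts were planned and not run, since no transcript sequences were used here.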

Additional observations from a re-analysis of the deposited data

How the results depend on the processing

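Calls of Hmgcs1, Fdps, Mvk and Scap held in all 14 alternatives, which drew on the same libraries by which Hmgcs1 and Fdps were chosen. The number of members called lower (3) was 8 with upper-quartile scaling, 17 with total counts alone, 15 with TPM + 1 and with TPM + 0.1, and 5 without the count filter, with at least 50 counts and with the replicate block; it was 2 to 7 when single libraries were left out, with 7 without control replicate 1. The number called higher (6) was 2 with total counts alone and with both uncentred TPM settings. The median log2 fold of the 27 members other than Hmgcs1 and Fdps (0.16) was -0.12 with upper-quartile scaling and -0.93 with total counts. It was -0.79 and -0.80 with TPM + 1 and TPM + 0.1, -0.071 with median-centred TPM and 0.075 to 0.32 when single libraries were left out. The median of all tested genes (-0.11) was -0.40 with upper-quartile scaling and -1.22 with total counts. It was -0.70 and -0.99 with TPM + 1 and TPM + 0.1, and 0.022 with median-centred TPM. The fold of Fdps minus the median of the other 27 members was -4.74 to -4.32 when single libraries were left out. Mbtps2 turned to -0.12 and -0.11 with TPM + 1 and TPM + 0.1, and Ncor1 to -0.21 with total counts and with both. Of the further sterol genes, 4 were called higher and 29 lower with total counts, 3 and 21 with TPM + 1 and 3 and 20 with TPM + 0.1, against 11 and 3; the number lower was 0 to 3 when single libraries were left out. The cause of these changes was not tested. The share of all tested genes called lower (6.19%) moved as well: it was 12.9% with upper-quartile scaling, 45.3% with total counts, 38.5% and 38.3% with the TPM settings, 5.04% without the count filter, 7.36% with at least 50 counts, 7.41% with the replicate block, 9.75% and 4.52% without control replicates 1 and 2, and 2.13% and 2.94% without miR-206 replicates 1 and 2. The replicate block called 7 members higher. With 2 libraries a group, small folds such as those of Tm7sf2 and Pmvk could not be told from 0.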
